A study of Homo sapiens with 48 samples.

Results

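The genes described here encode 5 proteins of the cell surface: CD83, ICAM1, CD55, CD274 and CD44. They were taken by gene symbol, whatever their values, which gave 8 probes of the 30112 array probes that carry 1 gene symbol, or 5 genes of 20045. CD83 has 2 probes (ILMN_1780582 and ILMN_2328666), CD44 has 3 (ILMN_1803429, ILMN_2348788 and ILMN_1778625), and ICAM1 (ILMN_1812226), CD55 (ILMN_1800540) and CD274 (ILMN_1701914) have 1 each. Where a gene has several probes, the first named stands for it below. Their levels, their detection and their changes with BV6 and with each siRNA are given across all 20 groups of the study.

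CD83 is a membrane protein of the immunoglobulin superfamily, best known as a marker of mature dendritic cells and as a gene switched on by NF-kB. ICAM1 is the adhesion molecule that leukocyte integrins such as LFA-1 bind, and is a textbook target of the NF-kB subunit RELA. CD274 encodes PD-L1, the ligand that restrains T cells through PD-1, and is known to be induced by interferon-gamma through the transcription factor IRF1. CD55, also called decay-accelerating factor, breaks up complement convertases on the cell's own surface, and CD44 is the main cell surface receptor for hyaluronan. NF-kB is a family of dimeric transcription factors held inactive in the cytoplasm until a signal such as TNF, acting through its receptor TNFR1, releases them.

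RNA of EVSA-T and MDA-MB-231 cells, both long-used human breast cancer lines, was hybridized to 48 Illumina HT-12 bead arrays, 1 for each sample. BV6 is a small molecule of the SMAC mimetic class, which acts on inhibitor of apoptosis proteins such as cIAP1. A siRNA experiment in MDA-MB-231 crossed a control siRNA (siCtrl) and siRNAs to TNFR1, RELA and IRF1 with no treatment or 9 h of 50 nM BV6, giving 8 groups of 3 arrays. For the control and TNFR1 siRNAs the labels state 5 nM over 36 h ahead of BV6. A kinetic experiment in MDA-MB-231 without siRNA had 3 untreated groups (0, 9 and 15 h) and 5 groups with 50 nM BV6 (3 h, 6 h, 9 h, 12 h and 15 h), each of 2 arrays. A further experiment in EVSA-T crossed siCtrl and siTNFR1 with no treatment or 9 h of 5 nM BV6, giving 4 groups of 2 arrays. BV6 was therefore given at different doses to the 2 lines, and the EVSA-T arrays lie on another slide than the siRNA arrays of MDA-MB-231, so line, dose and slide cannot be told apart between them.

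Levels are normalized log2 signals, an array was counted as detecting a probe when its detection p was under 0.01, and the arrays detected between 10167 and 13072 probes. The detection p did not always fall as the signal rose, so some bright values below are not called detected and some dim ones are. Differences are limma log2 differences ± their standard error, and a call is a p-value under 0.05 after Benjamini-Hochberg adjustment over all genes tested. A gene entered a fit if detected on at least 3 of its arrays for the siRNA experiment, or at least 2 elsewhere. CD83, ICAM1 and CD55 were tested in every fit, CD44 in every fit but that of EVSA-T, and CD274 in none, so 4 of the 5 genes were tested in MDA-MB-231 and 3 in EVSA-T. The siRNAs lowered their targets, in untreated MDA-MB-231 TNFRSF1A, the gene of TNFR1, by at least 18.5-fold, RELA by at least 3.57-fold, and IRF1 by 10.2-fold, and TNFRSF1A by at least 6.62-fold in untreated EVSA-T. Nothing in the labels says that the arrays of a group come from separate cultures, so the p-values measure the spread between these samples only. VIM, CAV1, CAV2 and AXL were detected on 40 of 40 arrays of MDA-MB-231 and CDH1 on 0, while CDH1 and CLDN3 were detected on 8 of 8 arrays of EVSA-T. KRT8 and KRT19 were detected on every array of both lines, as was VIM. Of 11 mesenchymal markers, 8 were detected on most arrays of MDA-MB-231 and 1 on most of EVSA-T. Of 12 luminal epithelial markers, 6 were detected on most arrays of MDA-MB-231 and 8 on most of EVSA-T, so not every marker separated the lines. FN1 and SPARC were detected on 0 of 40 arrays of MDA-MB-231. PTPRC, the pan-leukocyte gene CD45, was detected on no array of either line. Of 9 leukocyte markers and 9 markers of mature dendritic cells with a probe, 1 each (CD68 and FSCN1) was detected on most arrays of MDA-MB-231.

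The 250 bases before the annotated start of CD83, ICAM1 and CD274 are shown, since these are the windows of the 5 genes that hold a match to a motif searched. They come from RefSeq on GRCh38.p14, read 5′ to 3′ on the plus strand, at chr6:14117522-14117771 for CD83, chr19:10270870-10271119 for ICAM1 and chr9:5450292-5450541 for CD274. Capitals mark matches, on either strand, to the NF-kB consensus, to its shorter form GGNNNTTCC, to the AP-1 site TGANTCA, or to the IRF site (GAAA, any 2 bases, GAAA).
CD83: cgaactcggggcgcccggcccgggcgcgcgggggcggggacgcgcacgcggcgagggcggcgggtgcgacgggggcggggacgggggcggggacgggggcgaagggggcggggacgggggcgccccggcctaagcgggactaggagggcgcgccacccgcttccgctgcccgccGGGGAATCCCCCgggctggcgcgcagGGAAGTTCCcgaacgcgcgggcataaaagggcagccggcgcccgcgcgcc
ICAM1: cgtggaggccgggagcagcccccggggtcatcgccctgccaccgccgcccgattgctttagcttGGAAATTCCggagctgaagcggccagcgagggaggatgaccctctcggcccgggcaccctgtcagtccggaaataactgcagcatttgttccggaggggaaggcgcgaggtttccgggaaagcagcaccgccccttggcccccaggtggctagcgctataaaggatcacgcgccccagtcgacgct
CD274: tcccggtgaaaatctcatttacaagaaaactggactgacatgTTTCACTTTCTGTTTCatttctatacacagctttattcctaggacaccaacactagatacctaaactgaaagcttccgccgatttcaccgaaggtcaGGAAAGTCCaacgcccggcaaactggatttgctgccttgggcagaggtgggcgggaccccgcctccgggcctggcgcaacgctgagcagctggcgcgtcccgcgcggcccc
In CD83 the first run of capitals holds 3 overlapping matches to the consensus and 1 to the short form, and the second run holds 1 match to the short form. ICAM1 holds 1 short form match, 186 to 178 bases before the start. CD274 holds 2 overlapping IRF matches, the first 208 to 199 bases before the start, and 1 short form match. The second annotated start of CD83, and those of CD55 and CD44, had 0 matches, and no AP-1 match was found in any of the 6 windows. Of 35116 RefSeq windows of this length, 5.21% hold the consensus, 17.1% the short form, 6.57% the AP-1 site and 3.02% the IRF site. A match is a description of these letters and was not tested for binding.

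CD83 rose with BV6 in every MDA-MB-231 comparison, and RELA siRNA lowered it both without and with BV6. In siCtrl cells its 3 untreated arrays read 8.48, 8.32 and 8.55 and its 3 BV6 arrays 9.41, 9.30 and 9.19, so the groups did not overlap. The difference was 0.85 ± 0.14 (1.80-fold, adjusted p = 0.000397). It was the only 1 of the 4 tested genes called in this comparison, in which 2.55% of all tested genes were called in either direction. Within the slide that holds 2 arrays of each of these groups the difference was 0.95 ± 0.15 (adjusted p = 0.00995), and within the other slide, with 1 array of each, 0.64 ± 0.25 (adjusted p = 0.319). In bulk RNA, a change in the share of cells that express a gene and a change per cell cannot be told apart.

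CD83 rose with BV6 under each siRNA as well. With siTNFR1 it was 0.80 ± 0.14 (adjusted p = 0.00133), with siRELA 0.87 ± 0.14 (adjusted p = 0.00118) and with siIRF1 0.85 ± 0.14 (adjusted p = 0.00162). Called in these comparisons were 1.32%, 0.303% and 0.845% of all tested genes. Within the slides the differences were 1.01 and 0.70 with siTNFR1, 0.67 and 1.26 with siRELA and 0.84 and 0.86 with siIRF1, all above 0 and none called on the arrays of 1 slide (adjusted p from 0.127 to 0.527). The tests of the differences in response against siCtrl gave -0.05 with siTNFR1 (95% interval -0.45 to 0.35), 0.02 with siRELA (-0.38 to 0.42) and 0.00013 with siIRF1 (-0.40 to 0.40), with adjusted p-values of 0.981, 0.999 and 1. These tests called 0 of the 4 genes each, against 0.0104%, 0.0417% and 0.177% of all genes. These intervals leave room for changes in either direction. They are not adjusted for the number of genes, as a call is, so changes past these bounds could also go uncalled.

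With RELA siRNA, CD83 was lower throughout and still rose with BV6. Untreated siRELA arrays read 7.12, 6.86 and 6.90, and with BV6 they read 7.69, 7.63 and 8.16. Every siRELA value lay below every siCtrl value of the same treatment, and every BV6 array with siRELA lay below every untreated array with siCtrl. Against siCtrl, CD83 was 2.81-fold lower without BV6 (-1.49 ± 0.14, adjusted p = 3.22e-08) and 2.77-fold lower with BV6 (-1.47 ± 0.14, adjusted p = 2.81e-08). These siRNA comparisons called 21% and 19.1% of all tested genes. Within the slides, the untreated difference was -1.41 and -1.65, and the one with BV6 -1.69 (adjusted p = 9.96e-05) and -1.03 (adjusted p = 0.0507).

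TNFR1 and IRF1 siRNA gave no call for CD83. Its untreated arrays read 8.26, 8.30 and 8.54 with siTNFR1 and 8.59, 8.34 and 8.64 with siIRF1, both overlapping the siCtrl arrays. The differences without and with BV6 were -0.08 and -0.13 with siTNFR1, and 0.07 and 0.08 with siIRF1, with adjusted p-values from 0.667 to 0.851. The second CD83 probe read lower in untreated cells, at 7.725 to 7.895 with siTNFR1 against 8.191 to 8.408 with siCtrl, with no overlap. Its difference of -0.48 ± 0.15 was not called (adjusted p = 0.0774). Without BV6, siTNFR1 called 0 of the 4 genes and 3.31% of all genes. The 3 siRNA comparisons of a treatment share their siCtrl arrays.

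**Figure D1:**
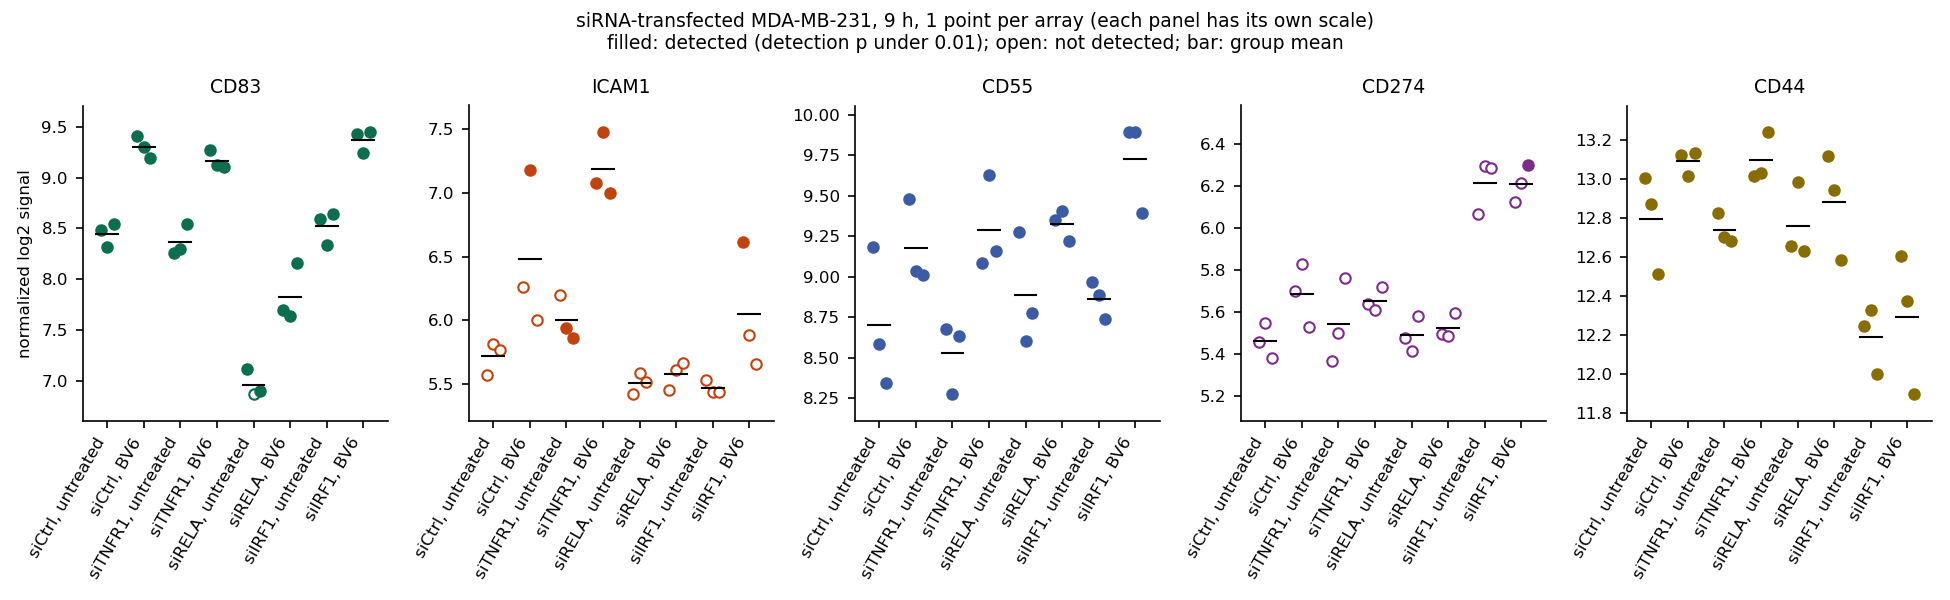
Normalized log2 signal of the 5 genes on each of the 24 arrays of transfected MDA-MB-231 cells, by siRNA and treatment. Filled points were detected and open points were not; bars are group means. CD83 is higher with BV6 for each siRNA and lower throughout with siRELA, ICAM1 is detected on all 3 BV6 arrays only with siTNFR1, and CD44 is lowest and CD274 highest with siIRF1.

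ICAM1 was near background in untreated cells, and its rise with BV6 passed the threshold with siTNFR1 only. With siCtrl its untreated arrays read 5.57, 5.82 and 5.77, none detected, and its BV6 arrays 6.26, 7.18 and 6.00, of which only that at 7.18 was detected. The groups did not overlap, but the difference of 0.76 ± 0.23 was not called (adjusted p = 0.0736). With the replicate number as a block, which this comparison's numbers allow, it was called at the same size (adjusted p = 0.0451). Leaving out the BV6 array at 6.00 gave 1.00 (adjusted p = 0.0201).

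With TNFR1 siRNA ICAM1 rose with BV6 and was detected on all 3 treated arrays, at 7.08, 7.48 and 7.0, against 6.20, 5.94 and 5.86 untreated. ICAM1 was detected on 7 of the 24 arrays of this fit, 3 of them siTNFR1 with BV6 and 2 siTNFR1 untreated. It thus met the filter of 3 arrays only through the siTNFR1 groups. CD83 and ICAM1 were the 2 of 4 tested genes called for BV6 with siTNFR1, against 1.32% of all tested genes. The ICAM1 difference was 1.19 ± 0.23 (2.28-fold, adjusted p = 0.00408), also called with no filter on detection. Within the slides it was 0.88 (adjusted p = 0.575) and 1.34 (adjusted p = 0.0126). The response was 0.43 ± 0.32 larger than with siCtrl (95% interval -0.23 to 1.08, adjusted p = 0.852), so the difference between the responses was not called. Against siCtrl with BV6, ICAM1 was 0.71 ± 0.23 higher with siTNFR1 (adjusted p = 0.0695), not called, in a comparison that called 0 of the 4 genes and 4.96% of all genes. Without the siCtrl BV6 array at 7.18 it was 1.06 (adjusted p = 0.00238).

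With RELA siRNA ICAM1 was detected on 0 of 6 arrays. Its values were 5.42, 5.58 and 5.52 untreated and 5.45, 5.61 and 5.66 with BV6, and the 2 groups overlapped. CD83 and ICAM1 were the 2 of 4 genes called against siCtrl with BV6, in a comparison that called 19.1% of all tested genes. ICAM1 was 1.87-fold lower as fitted (-0.90 ± 0.23, adjusted p = 0.00544), with detection on 0 of 3 arrays against 1 of 3, so the fold is not an exact size. This call rests in part on the same siCtrl array at 7.18: without it the difference was -0.55 (adjusted p = 0.0643), and within the slide that lacks that array -0.34 (adjusted p = 0.608). The test of the difference in response gave -0.69 ± 0.32 (95% interval -1.35 to -0.03, adjusted p = 0.915), so no loss of response was called.

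With IRF1 siRNA ICAM1 read 5.53, 5.43 and 5.43 untreated, none detected, and 6.61, 5.88 and 5.65 with BV6, with 1 detected. The difference of 0.58 ± 0.23 was not called (adjusted p = 0.386). Against siCtrl with BV6 the difference was -0.43 ± 0.23 (adjusted p = 0.186).

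CD55 was detected on all 24 arrays of the siRNA experiment and was called with BV6 under siIRF1, with positive differences under each siRNA. With siCtrl it read 9.18, 8.59 and 8.34 untreated and 9.48, 9.03 and 9.01 with BV6, and the groups overlapped. The difference was 0.47 ± 0.21 with siCtrl (adjusted p = 0.273), 0.76 ± 0.21 with siTNFR1 (adjusted p = 0.066) and 0.44 ± 0.21 with siRELA (adjusted p = 0.843), none called. The siTNFR1 difference was called with the authors' deposited values (0.62, adjusted p = 0.0285), with no background correction (0.62, adjusted p = 0.0311) and with the replicate number or the slide as a block (0.76, adjusted p = 0.02 and 0.0425). With siIRF1 it rose from 8.97, 8.89 and 8.74 to 9.90, 9.89 and 9.39, by 0.86 ± 0.21 (1.82-fold, adjusted p = 0.041). That call was lost without 5 of the 6 arrays of the comparison, at differences of 0.78 to 0.91 and adjusted p-values of 0.0861 to 0.197, and also with no filter on detection (adjusted p = 0.107) and within either slide (0.92 and 0.83, adjusted p = 0.663 and 0.304). The response with siIRF1 minus that with siCtrl was 0.39 ± 0.29 (95% interval -0.21 to 0.99), not called. With BV6, CD55 was 0.55 ± 0.21 higher with siIRF1 than with siCtrl, short of the threshold (adjusted p = 0.056) and past it with the replicate number as a block (adjusted p = 0.0237). The siRELA and siTNFR1 groups gave no call for CD55 against siCtrl.

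CD44 was detected on all 40 arrays of MDA-MB-231, and IRF1 siRNA lowered it both without and with BV6. Its untreated siCtrl arrays read 13.01, 12.87 and 12.51, against 12.24, 12.33 and 12.00 with siIRF1, with no overlap. With BV6 they read 13.12, 13.02 and 13.13 with siCtrl and 12.61, 12.37 and 11.90 with siIRF1, again with no overlap. CD44 was 1.52-fold lower with siIRF1 without BV6 (-0.60 ± 0.17, adjusted p = 0.0114) and 1.74-fold lower with BV6 (-0.80 ± 0.17, adjusted p = 0.00109). It was the 1 of 4 genes called in each, while 21.8% and 22.1% of all tested genes were called. The second CD44 probe was also lower (-0.56 ± 0.17, adjusted p = 0.0221, and -0.54 ± 0.17, adjusted p = 0.0244). The untreated difference was lost without the siCtrl array at 13.01 (-0.50, adjusted p = 0.0663) and without the siIRF1 array at 12.00 (-0.51, adjusted p = 0.0664). Within the slides it was -0.69 (adjusted p = 0.057) and -0.35 (adjusted p = 0.445), and the difference with BV6 was -0.46 (adjusted p = 0.192) and -0.995 (adjusted p = 0.0287). Other markers moved with siIRF1: with BV6, both tested leukocyte markers were lower, CD68 (-0.95 ± 0.13) and CD14 (-0.72 ± 0.19), as was FSCN1, 1 of 3 tested dendritic cell markers (-0.81 ± 0.19), and their part in the result was not tested.

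CD44 gave no call for BV6 or for the other siRNAs in MDA-MB-231. Its BV6 differences were 0.29 ± 0.17 with siCtrl, 0.36 ± 0.17 with siTNFR1, 0.12 ± 0.17 with siRELA and 0.10 ± 0.17 with siIRF1. Its siTNFR1 and siRELA differences lay between -0.21 and 0.01. The third CD44 probe was detected on 6 of 48 arrays and gave no call in any comparison that tested it. With siIRF1 its differences were -0.02 ± 0.17 without BV6 and -0.16 ± 0.17 with BV6, but it was detected on 0 of 3 arrays in both siCtrl groups, so a decrease could not be measured with it. Its correlation with the first over the siRNA arrays was 0.396, against 0.854 for the second.

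CD274 was detected on 2 of 48 arrays and was not tested with the other genes. In the siRNA experiment its siCtrl arrays read 5.46, 5.55 and 5.38 untreated and 5.70, 5.83 and 5.53 with BV6, none detected. With siIRF1 they read 6.07, 6.30 and 6.28 untreated, none detected, and 6.12, 6.21 and 6.30 with BV6, of which only the last was detected. All 6 siIRF1 arrays lay above the other 18 arrays, whose highest value was 5.83. In the fit of all 20045 genes with no filter on detection, CD274 was higher with siIRF1 than with siCtrl, both untreated (adjusted p = 1.75e-05). That comparison called 1811 of the 20045 genes. No fold is given there, since neither group was detected. With BV6 CD274 was 1.44-fold higher as fitted (adjusted p = 0.000785), in a comparison that called 1897 of the 20045 genes. It was detected there on 1 of 3 arrays against 0 of 3, so this fold is not an exact size. Leaving out any 1 of the 6 arrays kept both calls, with adjusted p-values of at most 0.000232 and 0.00788. BV6 itself gave no call for CD274 with any siRNA, and TNFR1 and RELA siRNA gave none.

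In untransfected cells, CD83 rose with BV6 at every time from 3 h on, while ICAM1 was at the untreated level at 3 h and rose later. CD83 read 7.57 and 7.74 in untreated cells at 0 h, 7.56 and 7.25 at 9 h and 7.31 and 7.47 at 15 h. With BV6 it read 8.86 and 8.43 at 3 h, 9.34 and 8.62 at 6 h, 9.01 and 8.81 at 9 h, 9.56 and 8.86 at 12 h, and 9.35 and 9.12 at 15 h. Every BV6 value lay above every untreated value. Against the 6 untreated arrays together, which all 5 comparisons share, the differences were 1.16 ± 0.21 at 3 h (2.24-fold, adjusted p = 0.0253), 1.50 ± 0.21 at 6 h (adjusted p = 0.00282) and 1.43 ± 0.21 at 9 h (adjusted p = 0.00194). They were 1.73 ± 0.21 at 12 h (adjusted p = 0.000139) and 1.75 ± 0.21 at 15 h (3.37-fold, adjusted p = 8.92e-05). The comparisons from 3 h to 15 h called 0.382%, 0.473%, 1.22%, 4.15% and 6.96% of all tested genes. The value at 15 h was 0.59 ± 0.26 above that at 3 h, which was not called (adjusted p = 0.222).

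ICAM1 was detected on 0 of the 6 untreated arrays, where it read 5.42 and 5.62 at 0 h, 5.22 and 5.39 at 9 h and 5.41 and 5.32 at 15 h. With BV6 it read 5.53 and 5.35 at 3 h, within the untreated range, and 6.54 and 5.68 at 6 h and 6.62 and 5.99 at 9 h, with 1 of 2 arrays detected at each of the latter times. It read 7.05 and 6.66 at 12 h, both detected, and 7.17 and 6.40 at 15 h, neither called detected. From 6 h on, every BV6 value lay above every untreated one. The difference was 0.72 ± 0.24 at 6 h (adjusted p = 0.352) and 0.91 ± 0.24 at 9 h (adjusted p = 0.0948), not called. At 12 h ICAM1 was at least 2.75-fold higher (1.46 ± 0.24, adjusted p = 0.0021), and the difference at 15 h was also called (adjusted p = 0.00221), with no fold given since no array of either group was detected. CD83 and ICAM1 were the 2 of 4 genes called at 12 h and again at 15 h, against 4.15% and 6.96% of all tested genes. ICAM1 was detected on 4 of the 16 arrays, all with BV6, so it entered the fit only through BV6 groups. Its calls at 12 h and 15 h held with no filter on detection. From 3 h to 15 h of BV6, with no untreated array in the test, ICAM1 was called higher (adjusted p = 0.0171) as the 1 of 4 genes, against 4.16% of all tested genes. No array of either of these 2 groups was detected, and this call was lost with no filter on detection.

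The slide moved with these values. From 6 h to 15 h the first BV6 array of each pair was on the slide of all untreated arrays and the second on another, and the second read lower for CD83 and ICAM1 at each of the 4 times. With the slide as a block, ICAM1 was 1.05 ± 0.15 higher at 6 h (adjusted p = 0.00239) and 1.24 ± 0.15 at 9 h (adjusted p = 0.000191), and within the slide of the untreated arrays 1.22 ± 0.19 at 9 h (adjusted p = 0.0145). The replicate number as a block, which the numbers allow at 9 h, also gave a call there (0.91, adjusted p = 0.0256). Within the slide of the untreated arrays, the CD83 differences were 1.16, 1.86, 1.52, 2.08 and 1.87 at 3, 6, 9, 12 and 15 h. Among the BV6 arrays from 6 h to 15 h, slide and replicate number cannot be told apart. The untreated arrays of both replicate numbers lie on the same slide.

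CD55 rose at the earliest BV6 time and was not called at later ones. It read 8.97 and 8.92 in untreated cells at 0 h, 9.35 and 9.20 at 9 h and 8.67 and 9.05 at 15 h, and with BV6 9.69 and 10.05 at 3 h, above all 6 untreated arrays. CD55 rose at 3 h by 0.84 ± 0.16 (1.79-fold, adjusted p = 0.0358), so CD83 and CD55 were the 2 of 4 genes called then, against 0.382% of all tested genes. Its differences were 0.63 ± 0.16 at 6 h, 0.47 ± 0.16 at 9 h, 0.54 ± 0.16 at 12 h and 0.33 ± 0.16 at 15 h, none called, with the 12 h value past the threshold with the replicate number as a block (adjusted p = 0.0482). The value at 15 h was -0.52 ± 0.20 against that at 3 h, not called (adjusted p = 0.163). Both calls at 3 h were lost with no filter on detection, at adjusted p-values of 0.102 for CD83 and 0.0768 for CD55, and the CD55 call was lost without any of 6 of the 8 arrays (adjusted p from 0.0653 to 0.634).

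CD44 lay between 12.26 and 13.06 on all 16 arrays of the kinetic experiment, with BV6 differences from 0.07 ± 0.16 to 0.24 ± 0.16, none called. CD274 was detected on 1 of the 16 arrays, at 6 h, where it read 5.57. Its values ran from 5.25 to 5.46 untreated and from 5.36 to 5.82 with BV6, the highest at 12 h. With no filter on detection the difference at 12 h was called (adjusted p = 0.0252), with no array of either group detected. That comparison called 369 of 20045 genes. Without BV6, from 0 h to 15 h, 0 of the 4 tested genes and 0% of all genes were called by limma, with 290 genes at an unadjusted p under 0.05.

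**Figure D2:**
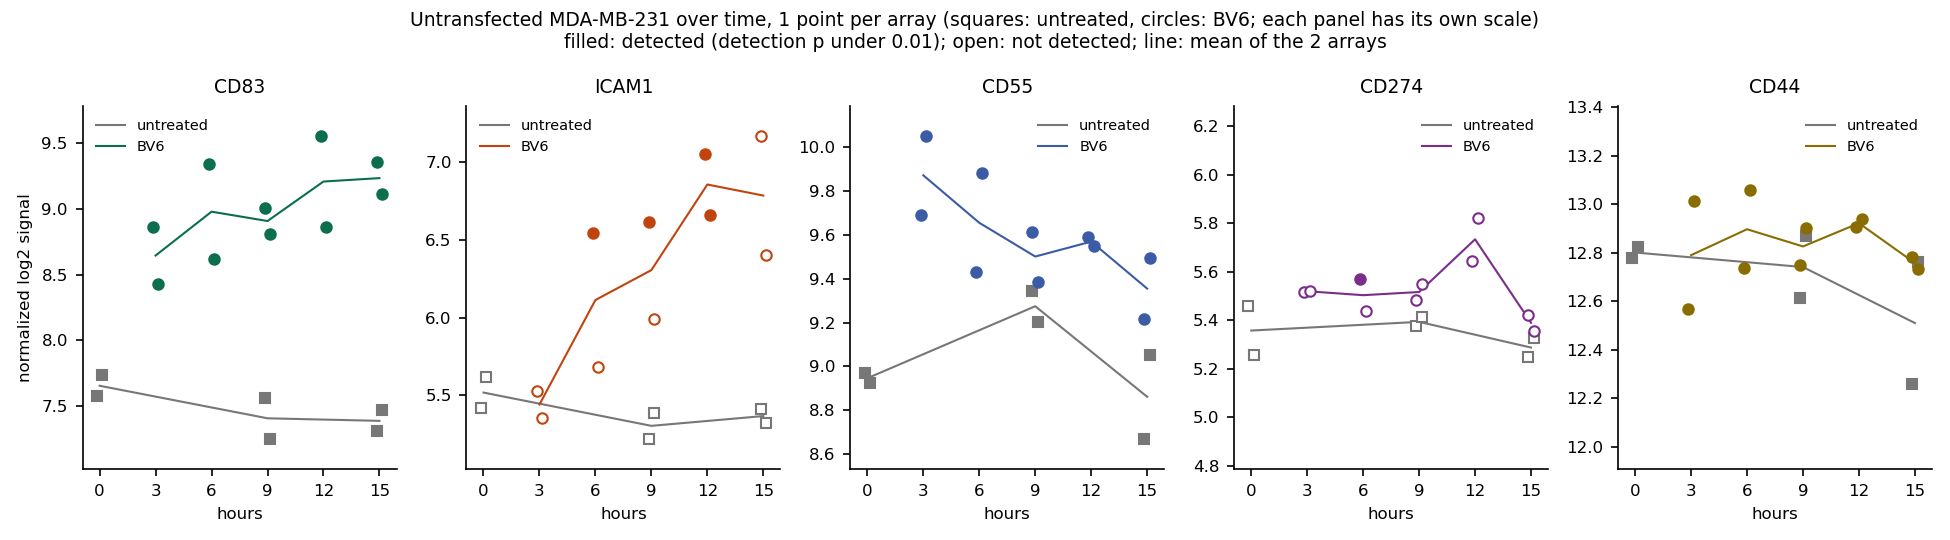
Normalized log2 signal of the 5 genes in untransfected MDA-MB-231 cells against hours, for untreated cells (squares) and 50 nM BV6 (circles), with a line through the means of the 2 arrays. CD83 with BV6 lies above all untreated arrays from 3 h on, ICAM1 from 6 h on, and CD55 has its highest mean at 3 h.

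In EVSA-T, CD83 and ICAM1 rose with BV6 in siCtrl cells and were near the untreated level with BV6 and siTNFR1. CD83 read 5.51 and 5.53 untreated, neither detected, and 8.51 and 7.98 with BV6, both detected, which is at least 6.61-fold higher (2.73 ± 0.22, adjusted p = 1.45e-05). No other EVSA-T array detected the first CD83 probe, so it entered the fit only through the group where it is high. The second CD83 probe was detected in that group and on 1 of the 2 siTNFR1 arrays with BV6. CD83 kept this call in 9 of 9 alternatives, no filter on detection among them. With siTNFR1 it read 5.51 and 5.76 untreated and 6.04 and 5.70 with BV6, none detected. ICAM1 read 5.61 and 5.40 untreated and 7.20 and 6.71 with BV6, 2.73-fold higher as fitted (1.45 ± 0.20, adjusted p = 0.000961). ICAM1 was detected on 1 of the 2 BV6 arrays and on neither untreated one, so its fold is not an exact size. With siTNFR1 it read 5.23 and 5.41 untreated and 5.51 and 5.39 with BV6, and the latter 2 were called detected. These were 2 of the 3 genes tested, in a comparison that called 11.4% of all genes, while BV6 with siTNFR1 called 0 of 3 and 0.0712%.

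Between BV6-treated groups, siTNFR1 lowered CD83 at least 5.18-fold (-2.37 ± 0.22, adjusted p = 5.81e-05). ICAM1 was 2.83-fold lower (-1.50 ± 0.20, adjusted p = 0.000851). These were 2 of 3 genes, against 11.5% of all genes. Without BV6, siTNFR1 called 0 of 3 genes and 0.0356% of all genes, with differences of 0.11 ± 0.22 for CD83 and -0.18 ± 0.20 for ICAM1. The BV6 response with siTNFR1 minus that with siCtrl was -2.49 ± 0.31 for CD83 (adjusted p = 0.0012) and -1.32 ± 0.29 for ICAM1 (adjusted p = 0.0301), against 3.85% of all genes. Since the untreated groups were undetected for both genes, these are fitted values near background and not exact sizes. The ICAM1 test of this difference was lost without 7 of the 8 arrays, at -1.07 to -1.42 and adjusted p-values of 0.0603 to 0.124, and with no filter on detection (adjusted p = 0.0801). The CD83 one held without each array, with an adjusted p of at most 0.0088.

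CD55 in EVSA-T read 6.34 and 5.95 untreated and 7.06 and 6.29 with BV6 in siCtrl cells, and 5.56 and 6.03 against 6.87 and 5.90 with siTNFR1. Both pairs overlapped, and the differences of 0.53 ± 0.34 and 0.59 ± 0.34 were not called. CD44 was detected on 1 of 8 arrays, a siCtrl array with BV6 at 6.06, while the other 7 read 5.26 to 5.61. CD274 was detected on none, at 5.05 to 5.28.

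**Figure D3:**
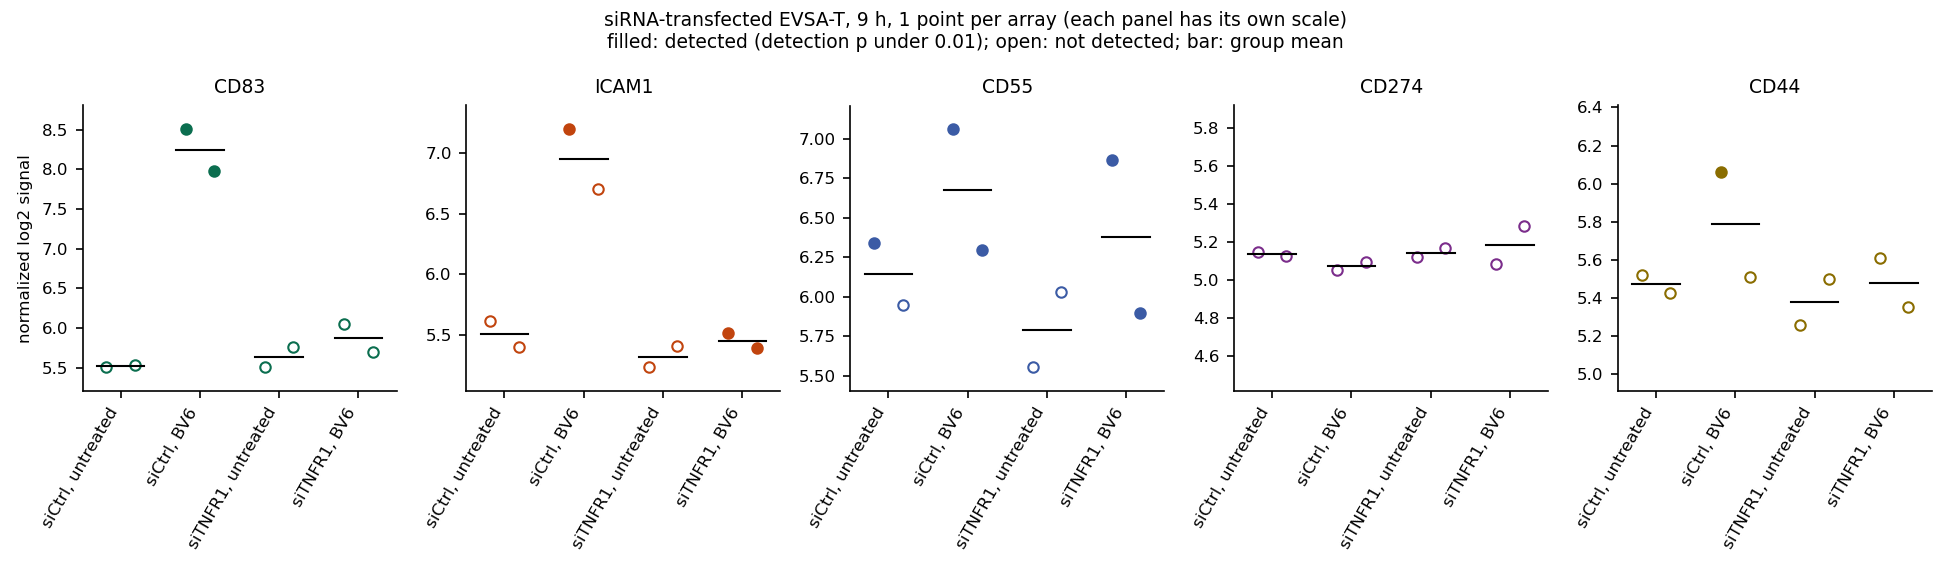
Normalized log2 signal of the 5 genes on each of the 8 EVSA-T arrays, by siRNA and treatment, with filled points detected, open points not detected and bars at group means. CD83 and ICAM1 are high only on the 2 siCtrl arrays with 5 nM BV6, and CD44 and CD274 stay near background.

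Untreated EVSA-T cells carried less CD83, CD55 and CD44 signal than untreated MDA-MB-231 cells, all with siCtrl and normalized together. CD83 was at least 5.99-fold lower (-2.58 ± 0.17, adjusted p = 2.9e-11), CD55 4.27-fold lower (-2.09 ± 0.30, adjusted p = 4.78e-06) and CD44 at least 129-fold lower (-7.01 ± 0.18, adjusted p = 1.42e-17). Neither line's ICAM1 was detected. These were 3 of 4 genes in a comparison that called 62% of all genes. The rise of CD83 with BV6 was 1.97 ± 0.24 larger in EVSA-T than in MDA-MB-231 as fitted (adjusted p = 9.66e-06), as the 1 of 4 genes called, against 4.96% of all genes. The untreated EVSA-T level was undetected, so its rise is known only as a lower bound and this difference is not an exact size. The differences between the responses were 0.90 ± 0.34 for ICAM1 (adjusted p = 0.164) and 0.08 ± 0.43 for CD55, not called. For CD83, the EVSA-T cells started from an undetected level and ended at 8.58 ± 0.36 (SD, n = 2) on the scale of all 48 arrays, against 9.19 ± 0.11 (SD, n = 3) in MDA-MB-231.

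**Figure D4:**
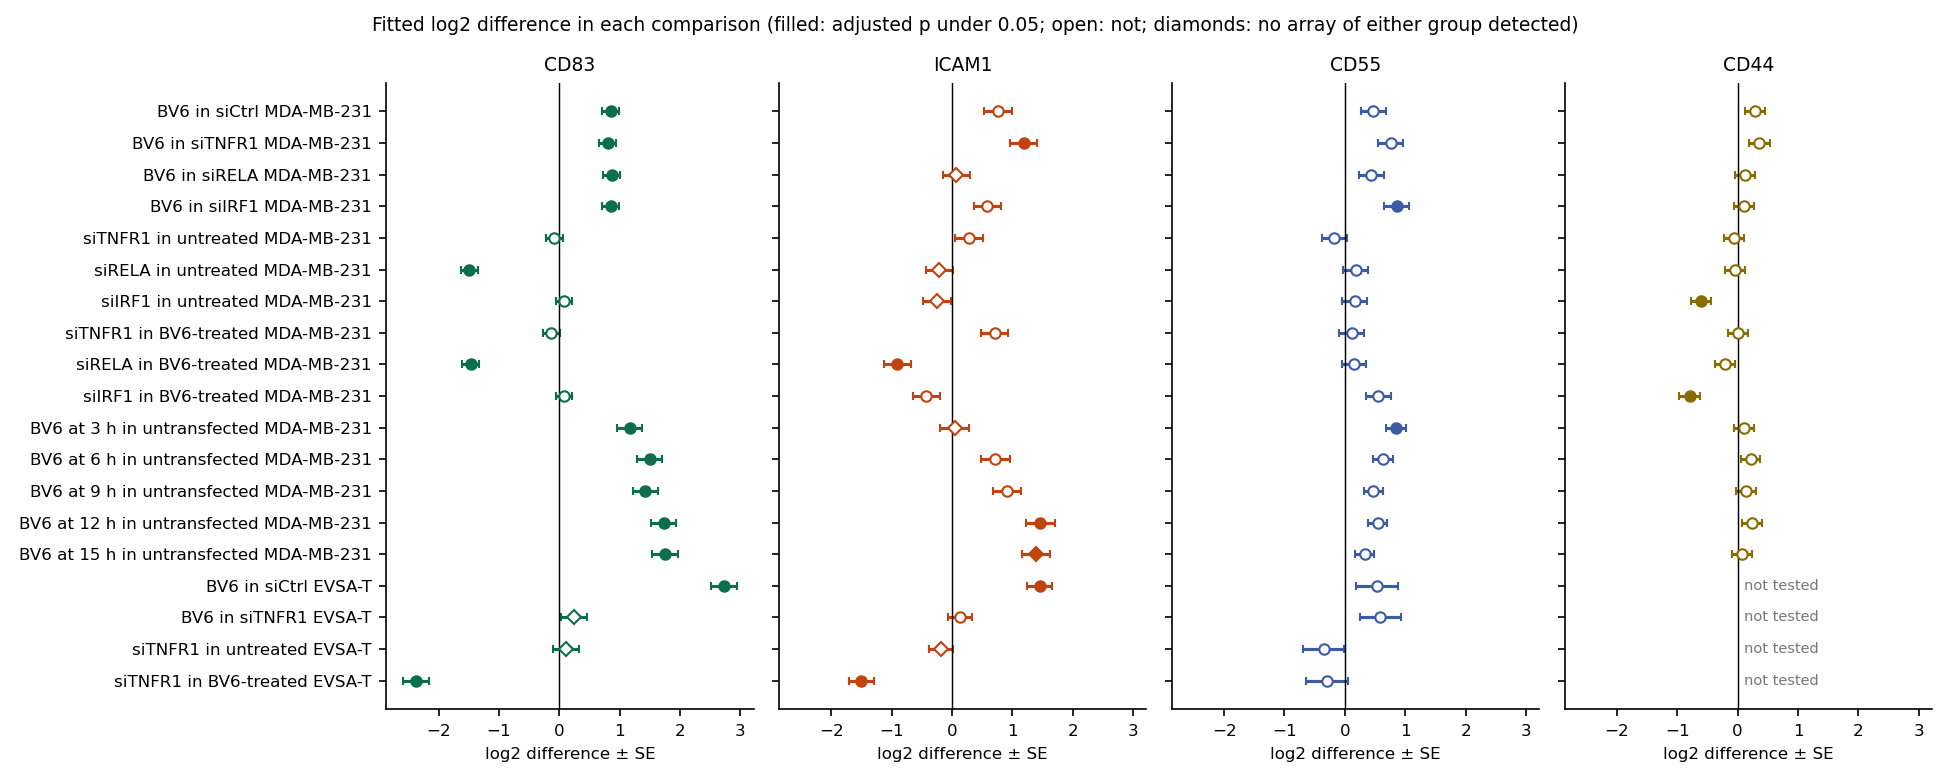
Fitted log2 difference ± standard error of the 4 tested genes in each comparison of 2 conditions within a line, filled where the adjusted p is under 0.05 and drawn as a diamond where no array of either group was detected. CD83 is filled in each comparison of BV6 with untreated cells but the siTNFR1 one in EVSA-T, in both siRELA comparisons and for siTNFR1 with BV6 in EVSA-T. CD44, not tested in EVSA-T, is filled for siIRF1 alone among those plotted.

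Over the 20 groups on the scale of all 48 arrays, CD83 spanned 3.56 on the log2 scale and was detected on 41 arrays. Its highest groups were the BV6 groups of MDA-MB-231 other than siRELA and then the siCtrl EVSA-T group with BV6, from 9.27 at 15 h down to 8.58. Neighbours in the order overlapped in 15 of 19 pairs. The 4 gaps lay below the untreated siTNFR1 group at 8.25, below the untreated 0 h group at 7.68, below the untreated 15 h group at 7.41 and below the untreated siRELA group at 6.83, which left the other 3 EVSA-T groups lowest at 5.71 to 6.16. ICAM1 spanned 1.97, was detected on 14 arrays and had 0 neighbouring groups without overlap. Its highest groups were siCtrl EVSA-T with BV6 at 7.34 ± 0.33 (SD, n = 2) and siTNFR1 MDA-MB-231 with BV6 at 7.06 ± 0.26 (SD, n = 3).

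CD55 spanned 3.84, from 9.90 at 3 h of BV6 to 6.06 in untreated siTNFR1 EVSA-T, and was detected on 45 arrays. Its single gap between neighbours, 1.35 wide, separated the 16 MDA-MB-231 groups from the 4 EVSA-T groups. CD44 spanned 7.47, was detected on 41 arrays, and its single gap of 6.05 also separated the lines. The 2 siIRF1 groups stood last among its MDA-MB-231 groups, at 12.19 ± 0.35 and 12.10 ± 0.17 (SD, n = 3 each). CD274 spanned 0.93, and its 2 siIRF1 groups stood first at 6.09 and 6.10, with a gap of 0.295 to the next.

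**Figure D5:**
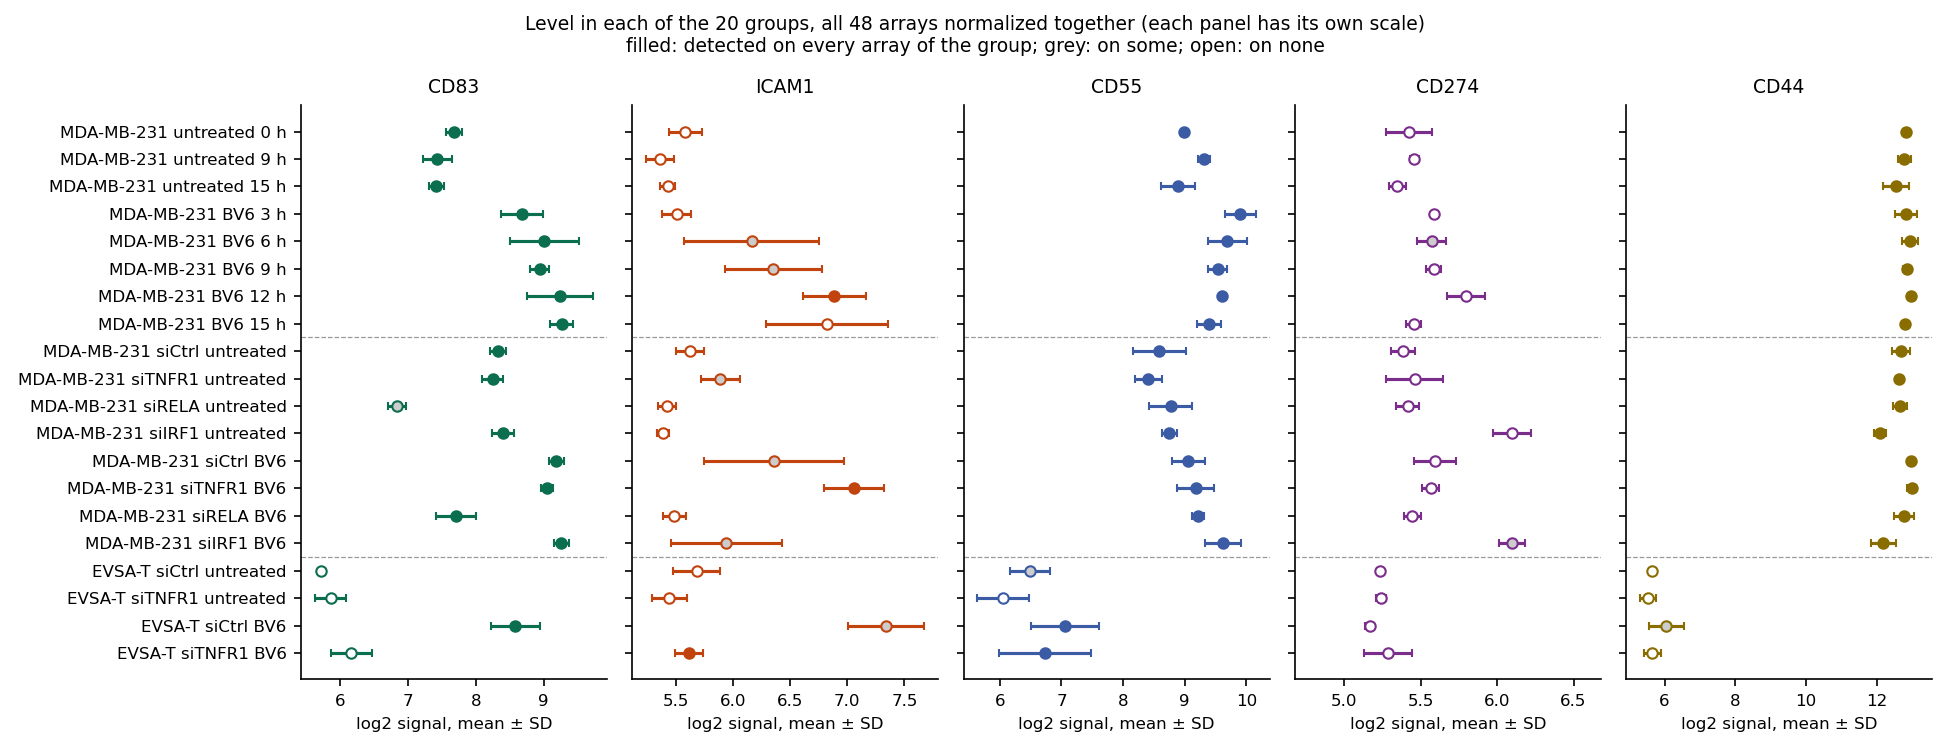
Mean log2 signal ± SD of the 5 genes in each of the 20 groups, all 48 arrays normalized together, filled where every array of the group was detected, grey where some were and open where none was; dashed lines separate the experiments. CD44 and CD55 separate the 2 lines, the highest CD83 and ICAM1 groups are BV6 groups, and the siIRF1 groups are lowest for CD44 among MDA-MB-231 and highest for CD274.

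The 2 CD83 probes gave the same calls in the BV6, RELA siRNA and EVSA-T comparisons above. The second probe rose by 0.78 ± 0.15 with BV6 in siCtrl MDA-MB-231 (adjusted p = 0.00256), by 1.93 ± 0.19 at 15 h (adjusted p = 1.4e-05) and by 2.53 ± 0.23 in siCtrl EVSA-T (adjusted p = 3.15e-05). With siRELA in untreated cells its difference was -1.79 ± 0.15 (adjusted p = 4.08e-09). The sizes differed with siTNFR1 in untreated MDA-MB-231, at -0.48 for the second probe and -0.08 for the first, neither called. Over the siRNA arrays the probes correlated at 0.969.

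The genes whose group means were most like each member over the 8 groups of the siRNA experiment were taken from 1592 other genes (1593 for CD44) that ranged over at least 1 on the log2 scale. For CD83 they were C4BPB (Pearson r = 0.971), LRIG1 (0.97) and NIP7 (0.963), with 0.878, 0.871 and 0.785 over the 8 kinetic groups. For ICAM1 they were SAA2 (0.983), LTB (0.966) and THBD (0.948), with 0.931, 0.945 and 0.771. For CD55 they were ETS1 (0.872), SRFBP1 (0.85) and GADD45A (0.845), with 0.837, 0.926 and 0.704. For CD44 they were PARP12 (0.989), IL15 (0.982) and TNFRSF1B (0.975), with 0.674, 0.104 and 0.533, so the likeness of IL15 to CD44 was not seen in the kinetic groups. These group means share arrays and normalization and carry no test.

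Other surface genes of the same kinds were counted by list, where the lists hold the members too. The shares of all genes called, against which each list count is to be read, were 2.55% for BV6 in siCtrl MDA-MB-231, 6.96% at 15 h, 19.1% for siRELA with BV6, 22.1% for siIRF1 with BV6, 4.96% for siTNFR1 with BV6, 11.4% for BV6 in siCtrl EVSA-T and 11.5% for siTNFR1 with BV6 in EVSA-T. Of 24 checkpoint ligands and costimulators, 11 were tested in the siRNA experiment, and BV6 in siCtrl cells raised 1, CD83, and lowered 0, with a list median of -0.04 against -0.02 for all genes. At 15 h, 4 of 12 rose: CD83, CD40 (0.76 ± 0.19), the costimulatory receptor of the TNF receptor family, NECTIN2 (0.71 ± 0.14), a ligand of TIGIT, and TNFSF9 (0.65 ± 0.17), the ligand of 4-1BB. With BV6, siRELA lowered 4 of 11, among them CD83, CD40 (-1.05 ± 0.18) and CD276 (-0.63 ± 0.12), and raised 1, NT5E (0.61 ± 0.20), the enzyme CD73 that makes adenosine. IRF1 siRNA lowered 6 of 11 and raised 0, with a median of -0.39 against -0.00467 for all genes. The largest of these were CD58, the ligand of CD2, at -1.12 ± 0.13, CD40 at -0.95 ± 0.18, CD47, the ligand of SIRP-alpha, at -0.87 ± 0.21, and TNFRSF14 at -0.83 ± 0.17. In EVSA-T, BV6 raised 3 of 9: CD83, ICOSLG (1.70 ± 0.19), the ligand of ICOS, and CD47 (1.23 ± 0.21), and with BV6 siTNFR1 lowered 4 of 9, among them these 3. CD68 was the only leukocyte marker tested in EVSA-T and moved the same way, by 1.65 ± 0.21 with BV6 and -1.18 ± 0.21 with siTNFR1, while PTPRC was undetected, and its part in these results was not tested.

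Of 25 adhesion molecules and ligands of selectins or integrins, 10 were tested in the siRNA experiment and BV6 in siCtrl cells changed 0. At 15 h, 2 of 9 rose, ICAM1 and VCAM1, the endothelial ligand of the integrin VLA-4, at 2.01 ± 0.42 (adjusted p = 0.00877). With BV6, siRELA lowered 3 of 10, ICAM1, ICAM2 (-0.90 ± 0.18) and ITGB2, the beta chain of LFA-1 (-0.85 ± 0.18), and raised 2, among them CADM1, detected on 3 of 3 arrays against 0 of 3. IRF1 siRNA lowered 2, ITGB2 (-1.13 ± 0.18) and ICAM2 (-0.54 ± 0.18). In EVSA-T, BV6 raised 2 of 8, ICAM1 and ALCAM (1.49 ± 0.28), and siTNFR1 lowered the same 2 with BV6.

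Of 13 complement regulators, 4 were tested in the siRNA experiment. BV6 raised C4BPB, a chain of the C4b-binding protein, by 0.66 ± 0.14 in siCtrl cells (adjusted p = 0.00657) and by 0.54 ± 0.15 at 15 h (adjusted p = 0.0406), and siRELA lowered it with BV6 (-0.98 ± 0.14). CD59, the inhibitor of the membrane attack complex, was higher with siTNFR1 (0.68 ± 0.15) and siIRF1 (0.58 ± 0.15) in BV6-treated MDA-MB-231 and rose with BV6 in siCtrl EVSA-T (1.07 ± 0.21).

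Of 22 genes of CD44 and hyaluronan, 13 were tested in the siRNA experiment and BV6 in siCtrl cells changed 0, as at 15 h. With BV6, siIRF1 lowered 4 of 13, among them CD44 and LAYN, another hyaluronan receptor (-0.52 ± 0.14), and raised 2, HAS2, a hyaluronan synthase detected on 2 of 3 arrays against 0 of 3, and SRGN, the serglycin proteoglycan that CD44 binds (1.33 ± 0.22). Between the untreated lines, 9 of 14 were lower in EVSA-T and 3 higher, with a median of -0.62 against 0.03 for all genes, in the comparison that called 62% of all genes. CD44, LAYN, SRGN and MSN, the moesin that links CD44 to actin, were each detected on 3 of 3 arrays of MDA-MB-231 and 0 of 2 of EVSA-T. The checkpoint, adhesion and complement lists had 8 of 13, 6 of 14 and 3 of 4 genes lower in EVSA-T, among them CD47 (-1.76 ± 0.20), ALCAM (-2.71 ± 0.23) and CD55, and 3, 1 and 0 higher.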

How the data were processed

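Per the file headers, the deposited table holds a log2 signal and a detection p-value for each of 48107 probes and each array, and a second deposited table holds the authors' normalized log2 values, used as an alternative. The sources used here do not name the software behind either table. Probes with a missing value (3) were dropped; of the rest, 30112 carried 1 gene symbol, 8 several and 17984 none. Each experiment was normalized on its own with neqc (offset 16) in limma 3.58.1 under R 4.3.3, and the 2 lines or all 48 arrays were normalized together only where levels are set across them. Detection meant a p under 0.01. Of a gene's probes, that of highest mean was taken. Fits by limma (lmFit, eBayes) had 16 residual degrees of freedom over 9586 genes (siRNA experiment), 8 over 9944 (kinetic), 4 over 8422 (EVSA-T) and 12 over 10716 (both lines); p-values are two-sided and Benjamini-Hochberg adjusted over those genes. The steps were tested on simulated data. The lowest correlation between arrays of a group was 0.983, and the number of arrays limits the precision.

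The genes, lists and tests were chosen with earlier results of these data known. Named were the 5 genes, the siRNA targets, up to 4 called genes per list with the largest change, and the 3 genes most like each member. Replicate numbers paired the arrays, by correlations of their deviations over 0.1 in every pair, for BV6 with siCtrl and siIRF1, for siRELA and siIRF1 with BV6, for BV6 from 6 h to 15 h and for the EVSA-T difference in response. Alternatives were the authors' normalized values, no background correction, no filter on detection, the replicate number or the slide as a block, single slides, untreated cells of the same hour, and leaving out each array. A further alternative tested every probe that passed the filter. It left the values of each gene's chosen probe as they were, and none of its 103 results moved a call.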

Additional observations from a re-analysis of the deposited data

Results flagged for a closer look

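In EVSA-T the BV6 response of CD83 differed between siRNAs by the test of the difference itself, at -2.49 ± 0.31 on the log2 scale (siTNFR1 minus siCtrl, limma adjusted p = 0.0012). The same test gave -1.32 ± 0.29 for ICAM1 (adjusted p = 0.0301), and the untreated groups were undetected for both genes. The BV6 response of CD83 also differed between the lines, by 1.97 ± 0.24 (EVSA-T minus MDA-MB-231, adjusted p = 9.66e-06), where line, dose and slide cannot be told apart and the untreated EVSA-T level was undetected.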

How the results depend on the processing

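Of 1443 recomputed results of the 4 tested genes (all but CD274), 1277 kept their direction and their side of the threshold, 81 uncalled ones changed sign, 55 lost a call and 30 gained one, and 0 called results turned. The number of the 5 genes called moved as follows. With the authors' normalized values, and with no background correction, it was 2 (from 1) for BV6 with siCtrl, for siIRF1 with BV6 and at 9 h, where ICAM1 or CD55 was added, 3 (from 2) for BV6 with siTNFR1, where CD55 was added, and 1 (from 2) for the EVSA-T difference in response, where ICAM1 was lost (-0.85, adjusted p = 0.0695, and -0.79, adjusted p = 0.0729). With no filter on detection it was 2 (from 1) for siIRF1 without and with BV6 and 3 (from 2) at 12 h, where CD274 was added. Under the same setting the number was 1 (from 2) for BV6 with siIRF1 and for the EVSA-T difference in response. For 3 h and for 15 h against 3 h it was 0. With the replicate number as a block it was 2 for BV6 with siCtrl, siIRF1 with BV6 and 9 h, and 1 (from 0) for siTNFR1 with BV6 (ICAM1, 0.71, adjusted p = 0.0454); CD55 was also called for BV6 with siTNFR1 (0.76, adjusted p = 0.02, which made 3), and in these last comparisons the numbers do not pair the arrays. Besides the blocked values of ICAM1 and CD55 given with the results, the block changed no call of the 5 genes in a comparison whose numbers pair. The slide as a block gave 3 for BV6 with siTNFR1 (CD55, adjusted p = 0.0425), 2 for BV6 with siCtrl, siIRF1 with BV6, 6 h, 9 h and 15 h against 3 h (CD83, 0.82, adjusted p = 0.0434), and 1 for siTNFR1 with BV6. Within slide 1 it was 0 for BV6 with siTNFR1, siRELA and siIRF1 and for siIRF1 without and with BV6. Within slide 2 it was 0 for BV6 with siCtrl, siRELA and siIRF1, for siIRF1 untreated and for siRELA with BV6, and 1 for BV6 with siTNFR1 and for siTNFR1 with BV6. Within slide 3 it was 1 for 3 h and 2 for 9 h. Leaving out 1 array gave 1 to 2 for BV6 with siCtrl and with siIRF1, for siRELA and siIRF1 with BV6, at 12 h and 15 h, for the EVSA-T difference in response and for the difference between the lines' responses, 0 to 1 for siIRF1 untreated, siTNFR1 with BV6, 6 h, 9 h and 15 h against 3 h, and 0 to 2 at 3 h.

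Single arrays changed further calls. The CD83 calls were lost at 3 h without 5 of 8 arrays (adjusted p from 0.0619 to 0.0954), at 6 h without the first BV6 array (1.14, adjusted p = 0.165) and at 9 h without the first BV6 array (adjusted p = 0.0954). The ICAM1 calls were lost at 12 h and at 15 h without the first BV6 array (adjusted p = 0.0797 and 0.0982), and from 3 h to 15 h without the second 3 h array or the first 15 h array (adjusted p = 0.112 and 0.188). ICAM1 was called for siIRF1 with BV6 without siCtrl BV6 array 3 or siIRF1 BV6 array 1 (adjusted p = 0.0478 and 0.0265), CD55 there without siCtrl BV6 array 1 or siIRF1 BV6 array 3 (adjusted p = 0.031 and 0.0249), and the ICAM1 difference between the lines' responses without siCtrl BV6 array 2 of MDA-MB-231 (1.23, adjusted p = 0.00873). Against untreated cells of the same hour, ICAM1 differed by 1.00 at 9 h (adjusted p = 0.264) and 1.42 at 15 h (adjusted p = 0.0122).

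Counts over all genes moved by over 1.5 times under these settings. The replicate block called 389 genes (from 244) for BV6 with siCtrl, 192 (127) with siTNFR1, 509 (317) for siTNFR1 untreated, 87 (38), 94 (47), 219 (121), 673 (413) and 1112 (692) at 3, 6, 9, 12 and 15 h, 735 (414) from 3 h to 15 h, 505 (324) for the EVSA-T difference in response, 10 (6) for BV6 with siTNFR1 and 7 (3) for siTNFR1 untreated, both in EVSA-T, and 3 (1) and 8 (4) for the MDA-MB-231 differences in response with siTNFR1 and siRELA. The slide block called 487 for siTNFR1 untreated and 2 and 10 for the same differences in response. The authors' values called 69 at 3 h, 16 and 7 for BV6 with siTNFR1 and siTNFR1 untreated in EVSA-T, and 10 for the siTNFR1 difference in response; no background correction called 68, 14, 7 and 10, and no filter 22, 1, 0 and 2, and 31 at 6 h. Against the same hour, 54 and 397 were called at 9 h and 15 h. Signal near background limits ICAM1 and CD274.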

Other observations

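On the scale of all 48 arrays, CD83 in untreated MDA-MB-231 was 8.33 ± 0.12 (SD, n = 3) with siCtrl, against 7.68 ± 0.12, 7.43 ± 0.22 and 7.41 ± 0.11 (SD, n = 2 each) without transfection at 0, 9 and 15 h. Transfection and slide cannot be told apart here, and the difference was not tested.

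The arrays at which ICAM1 was called detected were not always those with the highest signal: in EVSA-T it was called detected at 5.39 and not at 6.71.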
